A study of Danio rerio with 8 samples.

Results

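The genes described here are 3 genes of the red blood cell membrane and its skeleton (slc4a1a, epb41b and sptb), 3 enzyme genes (cahz, nt5c2l1 and blvrb) and the zinc finger-like gene znfl2a. They were chosen by name, as the probe sets whose only gene symbol in the platform annotation is one of these names. Each of the 7 genes had 1 probe set, out of 8793 genes named on the array. The samples were cells of AB-background zebrafish embryos, 35 hours post fertilization, all with the cd41-GFP transgene. In it the promoter of cd41 (itga2b), a gene of thrombocytes and early blood progenitors, drives the fluorescent protein. Live cells were sorted on that fluorescence, each fraction was run through the sorter again, and RNA was amplified in 2 linear rounds before hybridisation. There were 4 GFP-positive arrays and 4 GFP-negative ones, which form sort pairs numbered 1 to 4. Both fractions came from the same transgenic line, so the GFP-negative fraction is the remainder of the embryo and not a wild-type control. How many embryos went into a sort, and whether the sorts came from separate clutches, is not stated in the labels, so p-values cover only the variation between these samples, and that may be technical.

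A red cell owes its shape and strength to a mesh of spectrin under the membrane. Protein 4.1 ties spectrin to actin, and the anion exchanger band 3 holds the mesh to the membrane while it swaps chloride for bicarbonate. Carbonic anhydrase makes that bicarbonate from carbon dioxide. In zebrafish, loss of epb41b, slc4a1a or sptb causes anaemia, and the mutants were named after wines (merlot and chablis, retsina, riesling). At this stage primitive red cells circulate in the embryo, and the question for these genes is how their signal divides between the sorted cells and the rest.

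The signal of 6 of the 7 genes was lower in the GFP-positive fraction, by 2.87-fold for cahz to 5.16-fold for nt5c2l1. The anion exchanger gene slc4a1a was the member whose difference did not pass the test. The transcripts were still measured in the GFP-positive fraction. On 8 of 8 arrays all 7 probe sets lay above the 40th percentile of the array, as did 6684 of 9801 tested probe sets. That percentile is the level used here to call a probe set dim. Whether the signal came from GFP-positive cells or from other cells left in the fraction was not tested. Of 9801 tested probe sets, 18.4% were called lower and 13% higher, and of the 7 members 6 were called lower and 0 higher. The same 6 were lower in 4 of 4 pairs, as were 31.8% of all tested probe sets. The median log2 difference of the members, GFP-positive minus GFP-negative, was -1.77, beside -0.18 for all tested probe sets. All calls are from limma with the pair as a block and a Benjamini-Hochberg adjusted p under 0.05. In bulk samples of this kind, fewer red cells and less RNA per red cell cannot be told apart.

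The trimmed mean signal was between 1500.26 and 1500.47 on every array, which is what the scaling to a common target sets. It does not equalise the rest of the distribution: the median signal ran from 275 to 421 between arrays, so the results were also computed under other scalings. The number of arrays limits the precision. The gene behind the gate, itga2b, lay below the 40th percentile on 8 of 8 arrays and does not check the labels. Of 13 tested myeloid genes 13 were higher in the GFP-positive fraction. Of 17 muscle genes 16 were lower and 1 higher, and 17 of 17 neural genes were lower. Of 6 endothelial genes 4 were lower and 0 higher, and of 6 thrombocyte genes 3 were higher and 2 lower. GFP-positive replicate 3 stood apart from the other GFP-positive arrays: its summed muscle signal was 16508, against 3445 to 5287 on the others, and its summed neural signal was 18442, against 2733 to 6916. On the GFP-negative arrays these sums were 71439 to 187322 and 61332 to 91991. The results without pair 3 are given beside slc4a1a and cahz. Without it the other 5 members were still called lower. Their differences were then -2.18 for epb41b, -1.63 for sptb, -2.15 for nt5c2l1, -1.49 for blvrb and -1.86 for znfl2a. The part of these other cell types in the results was not tested.

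**Figure D1:**
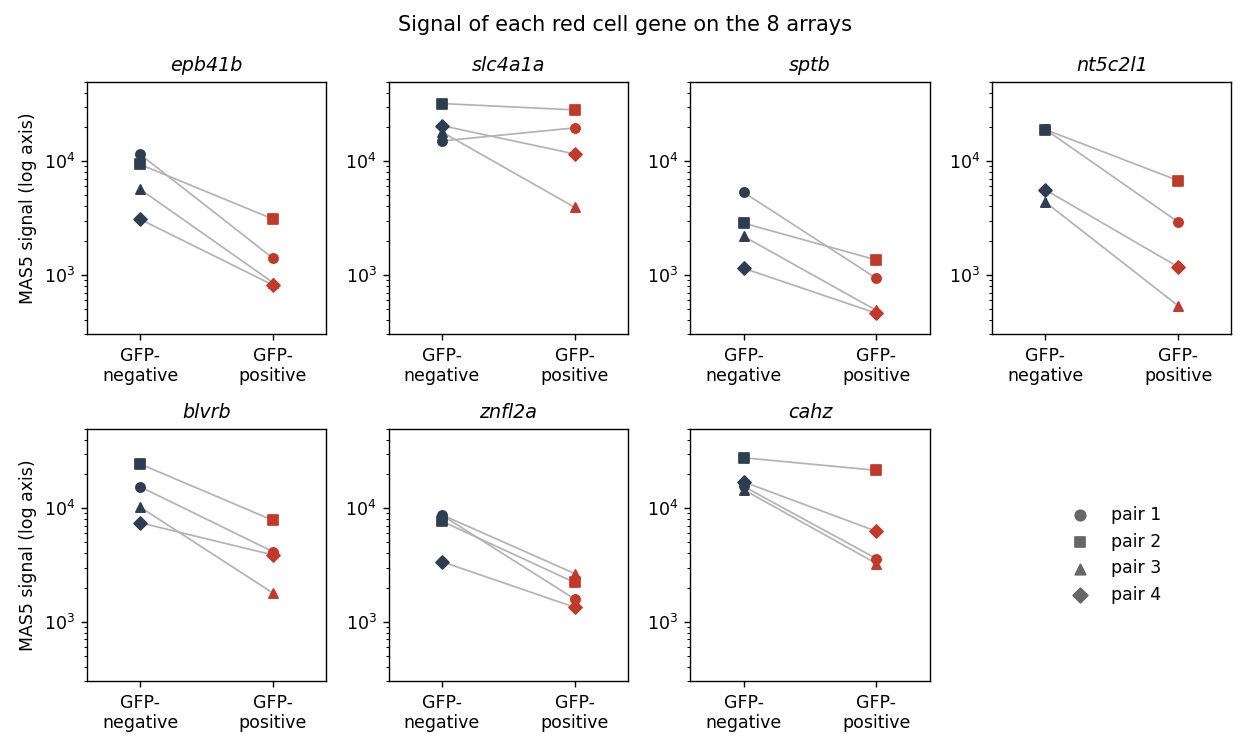
MAS5 signal (log axis) of the 7 genes on each array, with GFP-negative arrays in dark blue, GFP-positive arrays in red and a grey line joining the arrays of a pair; the marker gives the pair. The line falls in all 4 pairs for every gene except slc4a1a, whose signal in pair 1 went from 15063 to 19626.

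Among the membrane genes, the one for protein 4.1, epb41b (gene ID 326287), showed the largest difference. Its signals in GFP-negative replicates 1 to 4 were 11470, 9358, 5666 and 3086, and in the GFP-positive replicates 1403, 3101, 857 and 815. The highest GFP-positive array, replicate 2, just exceeded the lowest GFP-negative array, replicate 4, and the signal was lower in 4 of 4 pairs. The signal was 4.99-fold lower, a log2 difference of -2.32 (SE 0.33, 95% confidence interval -3.10 to -1.53, n = 4 pairs, limma adjusted p = 0.0047). Within pairs the GFP-positive signal was 12.2% to 33.1% of the GFP-negative one.

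The gene for beta-spectrin, sptb (gene ID 58040), encodes the chain that protein 4.1 binds. Its GFP-negative signals were 5322, 2854, 2185 and 1145, and its GFP-positive signals 934, 1356, 488 and 461. The fractions overlapped in 1 place, GFP-positive replicate 2 over GFP-negative replicate 4, and again 4 of 4 pairs pointed down. The log2 difference was -1.77 (SE 0.33, 95% confidence interval -2.55 to -0.98, limma adjusted p = 0.0099), a 3.40-fold lower signal. In pairs 1 and 3 the GFP-positive signal was 17.6% and 22.3% of the GFP-negative one, and in pairs 2 and 4 it was 47.5% and 40.2%.

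Band 3, the product of slc4a1a (gene ID 84703), sits in the same complex, but its transcript did not divide the same way in every pair. The GFP-negative signals were 15063, 32108, 18065 and 20528, and the GFP-positive signals were 19626, 28235, 3930 and 11575. GFP-positive replicates 1 and 2 lay inside the GFP-negative range, and replicate 3 lay far below it. As a share of the GFP-negative signal the GFP-positive one was 130.3% in pair 1, 87.9% in pair 2, 21.8% in pair 3 and 56.4% in pair 4. The fitted log2 difference was -0.71 (SE 0.44, 95% confidence interval -1.75 to 0.33, limma adjusted p = 0.25), an interval that holds both a 3.36-fold lower signal and no difference. The value depended on single pairs: it was -0.21 without pair 3 (limma adjusted p = 0.73) and -1.07 without pair 1 (limma adjusted p = 0.084).

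Because the fitted differences of slc4a1a and its partners were unlike, the pair differences themselves were compared. The log2 difference of slc4a1a was less negative than that of epb41b in 4 of 4 pairs, by 1.61 on average (SD 1.26), and than that of sptb in 3 of 4 pairs, by 1.06 (SD 1.28). Against the other 4 members the mean gap ran from 0.81 for cahz to 1.66 for nt5c2l1. These gaps were looked at because slc4a1a had already stood apart. They are given as a description, since the smallest p that an exact permutation test over 4 pairs allows is 0.125.

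**Figure D2:**
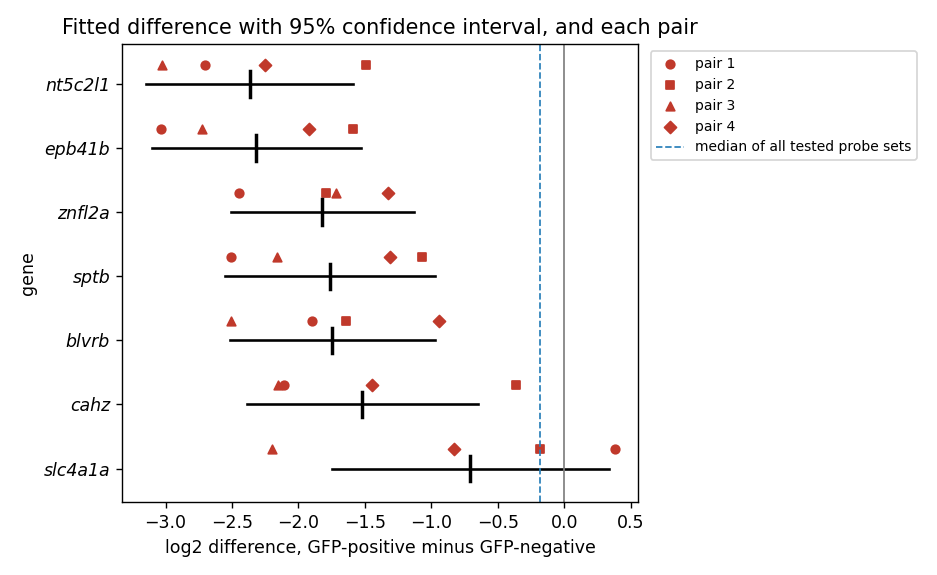
Log2 difference between the fractions for each gene (horizontal axis), with the fitted value as a vertical tick, its 95% confidence interval as a line, the 4 pair differences as red markers and the median of all tested probe sets (-0.18) as a dashed line. The interval of slc4a1a crosses 0 and those of the other 6 genes end at or below -0.65.

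Of the enzyme genes, cahz (gene ID 30331), the carbonic anhydrase of zebrafish red cells, had the least firm difference. It read 15508, 27685, 14511 and 17000 in the GFP-negative fraction and 3594, 21476, 3256 and 6243 in the GFP-positive one. GFP-positive replicate 2 lay within the GFP-negative range, and the other GFP-positive arrays lay below it. In pair 2 the GFP-positive signal was 77.6% of the GFP-negative one, against 22.4% to 36.7% in the other pairs. The log2 difference was -1.52 (SE 0.37, 95% confidence interval -2.39 to -0.65, limma adjusted p = 0.022). The call was lost with no replicate block (adjusted p = 0.069), after median centring (0.063), and without pair 3 (-1.31, adjusted p = 0.090) or pair 4 (-1.54, adjusted p = 0.082).

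The gene nt5c2l1 (gene ID 447810) encodes a cytosolic 5'-nucleotidase, an enzyme that strips phosphate from nucleoside monophosphates, and it had the largest difference of the set. Signals ran 19037, 18977, 4375 and 5607 on the GFP-negative arrays and 2921, 6762, 536 and 1178 on the GFP-positive arrays. Replicates 1 and 2 were high and replicates 3 and 4 low in both fractions, so the fractions overlapped across pairs while 4 of 4 pairs fell. The signal was 5.16-fold lower, with a log2 difference of -2.37 (SE 0.33, 95% confidence interval -3.15 to -1.59, limma adjusted p = 0.0044). With no replicate block the same difference had a limma adjusted p of 0.048.

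Biliverdin reductase B, encoded by blvrb (gene ID 436959), reduces flavins and a form of biliverdin and is an abundant red cell enzyme in mammals. It read 15391, 24387, 10193 and 7430 in GFP-negative cells and 4138, 7799, 1789 and 3872 in GFP-positive cells. GFP-positive replicate 2 was slightly above GFP-negative replicate 4, and all other GFP-positive arrays were below the GFP-negative range. The log2 difference was -1.75 (SE 0.33, 95% confidence interval -2.52 to -0.98, limma adjusted p = 0.0095), or 3.36-fold lower, and 4 of 4 pairs were lower.

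The zinc finger-like gene znfl2a (gene ID 373087) was the only member whose fractions did not overlap. It had signals of 8664, 7665, 8726 and 3378 in the GFP-negative fraction and of 1587, 2218, 2658 and 1344 in the GFP-positive fraction. Every GFP-positive array was below every GFP-negative one, a pattern that 19.9% of all tested probe sets shared. The log2 difference was -1.82 (SE 0.29, 95% confidence interval -2.51 to -1.13, limma adjusted p = 0.0064), a 3.53-fold lower signal.

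The members also varied together between arrays of the same fraction. GFP-positive replicate 2 was the highest GFP-positive array for 6 of 7 members, whereas it was the highest for 17.0% of all tested probe sets. GFP-positive replicate 3 was the lowest for 4 members and replicate 4 for the other 3, beside 19.3% and 22.2% of all tested probe sets. The exception was znfl2a, which was highest in GFP-positive replicate 3. In the GFP-negative fraction, replicates 1 and 2 were each the highest for 3 members, beside 39.0% and 14.2% of all tested probe sets, and replicate 4 was the lowest for 4, beside 22.0%. The count for replicate 1 was near that background. The spread was wide for some members. Within the GFP-positive fraction the highest array exceeded the lowest 12.6-fold for nt5c2l1, 7.18-fold for slc4a1a and 6.60-fold for cahz. The median over all tested probe sets was 2.79-fold. For blvrb it was 4.36-fold, for epb41b 3.81-fold, for sptb 2.94-fold and for znfl2a 1.98-fold. Within the GFP-negative fraction the members ran from 1.91-fold for cahz to 4.65-fold for sptb, beside a median of 1.80-fold.

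Similarity over the 8 arrays was described by the Pearson coefficient, after the mean of each fraction was removed, between a member and the average of the other 6. It was 0.93 for blvrb, 0.92 for epb41b, 0.92 for nt5c2l1, 0.80 for sptb, 0.68 for cahz, 0.67 for slc4a1a and 0.23 for znfl2a. These points share arrays, amplification and pairs, so the coefficients are given as a description without a p-value. The 3'/5' ratio of the GAPDH controls, a sign of RNA shortening, was 86.6, 31.3, 99.95 and 45.6 on GFP-positive replicates 1 to 4. Of these arrays replicate 3, with the highest ratio, was the lowest for 4 members. Replicate 2, with the lowest ratio, was the highest for 6. Replicate 1 was the lowest for 0 members and replicate 4 for 3. In the GFP-negative fraction the ratio was highest on replicate 1 (75.4), the array with the highest signal for 3 members and the lowest for 1. It was 18.2 to 22.6 on the others. In 4 of 4 pairs the GFP-positive array had the higher ratio, and its part in the differences was not tested.

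**Figure D3:**
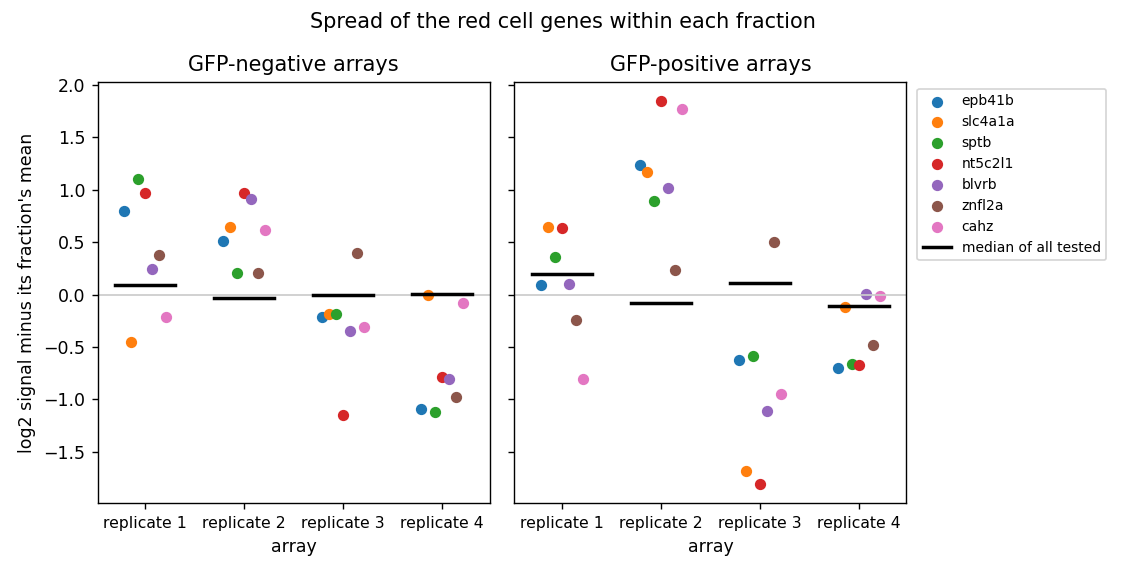
Log2 signal of each member minus the mean of its fraction (vertical axis) on the 4 arrays of each fraction, with a black bar at the median over all tested probe sets. On GFP-positive replicate 2 all 7 members lie above 0, up to 1.85 for nt5c2l1, while the median of all tested probe sets there is -0.09.

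By pair, the median log2 difference of the 7 members was -2.45 in pair 1, -1.49 in pair 2, -2.20 in pair 3 and -1.33 in pair 4. The median over all tested probe sets in the same pairs ran only from -0.23 to -0.13. Pair 3, whose GFP-positive array carried the most muscle and neural signal, had the second most negative member median. The same array had the highest GAPDH ratio of its fraction (99.95), and the part of either in that median was not tested. In that pair the muscle list had a median of -2.66 and the neural list of -1.70, against -5.66 to -4.78 and -5.59 to -4.11 in the other pairs.

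The non-member genes whose signals over the 8 arrays were most like the members' average included known red cell genes. The closest was dmtn (coefficient 0.99), which encodes dematin, an actin-bundling protein of the red cell skeleton in mammals. Next came the mitochondrial outer membrane gene tspo (0.98), the erythroid transcription factor gene klf1 (0.98), the haematopoietic death receptor gene hdr (0.97), ripor3 (0.96) and the alpha-spectrin gene sptan1 (0.96). Of 6534 genes compared, 0.689% had a coefficient above 0.9, and the median was 0.14. With the fraction means removed, klf1 (0.96), dmtn (0.96) and tspo (0.95) again led, followed by slc27a6, ucp3 and zgc:194246 (0.93 each), so that 3 genes were among the first 6 both ways. The plain measure holds the difference between the fractions, so genes that lead by it are lower through the choice itself, and the differences of the first 5 are given only as a description: -1.89 for dmtn, -1.72 for tspo, -1.67 for klf1, -1.71 for hdr and -1.72 for ripor3. Of these hdr lost its call without pair 3, klf1 without pair 4 and ripor3, dim on 2 of 4 GFP-positive arrays, in 5 of 11 alternatives. The difference of sptan1 was -0.68 (limma adjusted p = 0.090). Genes that only the second measure brought in did not all fall. For ucp3 the difference was -1.57 (limma adjusted p = 0.036), a call that held in 5 of 12 alternatives. Neither slc27a6 (-0.30, limma adjusted p = 0.45) nor zgc:194246 (0.68, limma adjusted p = 0.11) passed.

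Other genes of the red cell membrane and skeleton were largely lower as well. Of 24 further genes listed, 10 had a probe set and 8 were tested, of which 5 were lower and 1 was higher, with a median of -1.68. The lower ones were dmtn (-1.89, limma adjusted p = 0.0051), the stomatin gene stom (-1.82), the water channel gene aqp1a.1 (-1.58), tpm4a (-1.78) and tmod4 (-2.14). Both tpm4a and tmod4 encode partners of actin, a tropomyosin and a tropomodulin, that muscle uses too, and tmod4 was above the dim level on 2 of 4 GFP-positive arrays. With no replicate block 3 genes of the list were called lower (tmod4 with a limma adjusted p of 0.081), without pair 2 the number was 2, and without pair 3 or 4 it was 4 or 3. The calls lost were that of aqp1a.1 in these 4 alternatives, that of stom without pair 2 or 4 and that of tpm4a without pair 2. Over all tested probe sets the number called lower also dropped, from 1805 to 725 without pair 2, 1455 without pair 3 and 659 without pair 4. The palmitoylated membrane protein gene mpp1 rose by 1.64 (limma adjusted p = 0.0082), and another mpp1 probe set by 2.53. The adducin genes add1 (-0.61) and add3a (-0.72, and 0.46 by another probe set) did not pass.

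The enzyme list divided. Of 21 further enzyme genes 14 were tested, of which 6 rose and 1 fell, with a median of 0.59. The rises were in enzymes found in most cells: glutathione reductase gsr (3.02, limma adjusted p = 0.0020), pgd (3.41) and tktb (1.90) of the pentose phosphate pathway, gpia (2.2) and hk1 (1.296, and 0.66 by another probe set, which did not pass) of glycolysis, and catalase cat (2.03). The fallen gene was the muscle phosphoglycerate mutase pgam2, dim on 4 of 4 GFP-positive arrays and at least 4.89-fold lower (limma adjusted p = 0.0053). The peroxiredoxin gene prdx2, abundant in red cells, differed by -1.44 and was lower in 4 of 4 pairs without passing (limma adjusted p = 0.082). Without pair 1 it was smaller, -0.72, and was called (limma adjusted p = 0.023). The general carbonic anhydrase gene ca2 differed by 0.19 (limma adjusted p = 0.64). Also without passing, gclc (0.74) and pklr (0.43) were higher in 4 of 4 pairs. The differences of aldoaa (0.44), nt5c3a (0.15) and sod1 (-0.34) did not pass either. After quantile or cyclic loess normalization gclc was called higher, as was aldoaa without pair 1. The rises of gsr, pgd and tktb held in 12 of 12 alternatives, while without pair 2 or 3 the number of risen genes was 4, and without pair 4 it was 3. Over all tested probe sets the number called higher dropped too, from 1273 to 673 without pair 2, 893 without pair 3 and 646 without pair 4. The call of gpia was lost without pair 2, 3 or 4, that of hk1 there and after quantile or cyclic loess normalization, and that of cat without pair 4. Without pair 1 the rise of gpia was 2.85. The summed signal of the 14 genes was 154329 to 204974 on the GFP-positive and 79317 to 101140 on the GFP-negative arrays. That of the 8 membrane genes was 15470 to 23401 and 33568 to 57830.

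**Figure D4:**
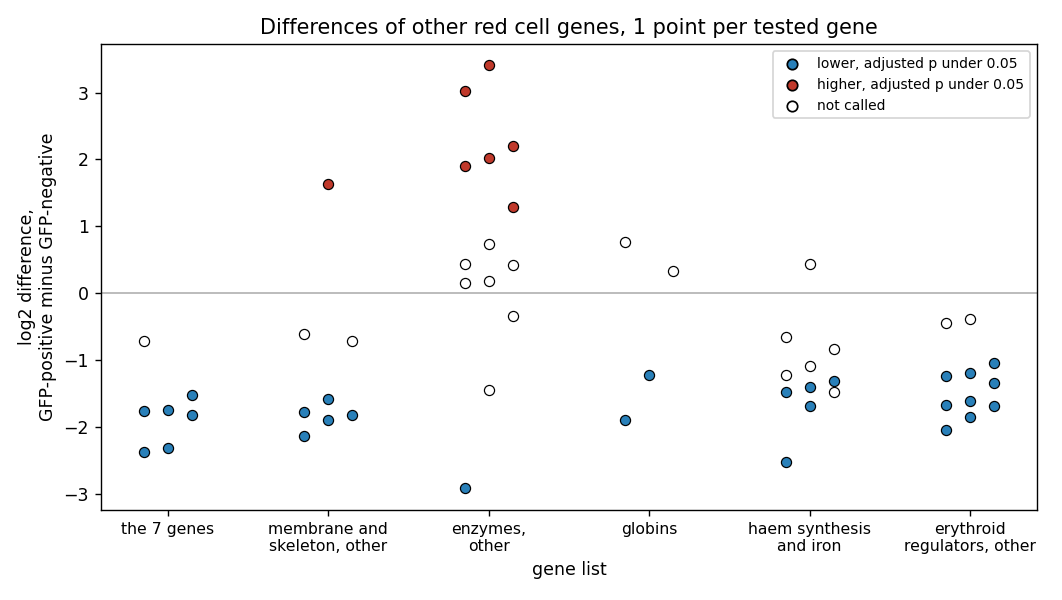
Log2 difference between the fractions (vertical axis) of the 7 genes and of the other tested genes of 5 red cell lists, 1 point per gene, filled blue where called lower, red where called higher and white where not called. The membrane list and the erythroid regulators lie mostly below 0, and the enzyme list holds 6 of the 7 red points.

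Regulators of the red cell programme were mostly lower too. Of 11 further genes tested 9 fell and 0 rose, with a median of -1.34, among them gata1a (-1.62, limma adjusted p = 0.0099), klf1 (-1.67) and smad5 (-2.05). As with the enzymes, not all of these genes, smad5 for one, are particular to red cells. Both gata1a and nfe2 were also in the thrombocyte list, where gata1a was 1 of the 2 called lower. The part of other tissues in the falls of the regulators was not tested. The differences of tfdp1a (-0.45) and nfe2 (-0.38) did not pass. The number of calls depended on single pairs: without pair 2 only 2 of the 11 were called lower (gata1a not among them). Without pair 4 it was 3 (klf1 and smad5 not among them) and without pair 3 it was 6. It was also 6 under each of the other 3 scalings. As given for the membrane list, calls also dropped over all tested probe sets without pair 2, 3 or 4. The median of the regulators was -1.38, -1.37 and -1.21 there, in that order. In the list of haem synthesis and iron 5 of 11 genes fell and 0 rose, with a median of -1.31. Its first members were fech (-1.68), cpox (-1.40) and alas2 (-2.53), the enzyme of the first step of haem synthesis in red cells. The call of fech was lost with no replicate block and without pair 2, that of cpox after median centring and without pair 2, 3 or 4, and that of alas2 without pair 3 (limma adjusted p = 0.084). The difference of alas2 ran from -3.16 without pair 4 to -1.80 without pair 1. Only 1 of the 11 was called without pair 2 or without pair 3, 3 without pair 4 and 2 after median centring, while 7 were called after quantile or cyclic loess normalization or without pair 1.

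The globins gave 2 calls, and neither held in every alternative. Of 4 tested genes hbbe2 (-1.90, limma adjusted p = 0.013) and hbaa1 (-1.23, limma adjusted p = 0.029) fell, while hbae3 (0.77, limma adjusted p = 0.13) and hbbe3 (0.33) did not pass, and another hbae3 probe set differed by -1.32, with the opposite sign. The sign of hbbe3 turned in 3 alternatives, and the first hbae3 probe set was at 0.016 after quantile normalization and was called higher after median centring (0.95, limma adjusted p = 0.041). The call of hbbe2 was lost without pair 3 or 4, and that of hbaa1 in 7 of 12 alternatives. On the deposited scale and with the first hbae3 probe set, the summed signal of the 4 genes was higher on every GFP-positive array, at 225698 to 253881. On the GFP-negative arrays it was 100498 in replicate 1 and 208812 to 221969 in the others. The other hbae3 probe set is not in this sum. Its mean signal was lower in the GFP-positive fraction, at 35942 against 62005, so the direction of the sum depends on the probe set chosen. The sum is not given under other scalings. The brightest were hbae3 and hbbe3, with GFP-positive means of 128438 and 102972, against 6707 for hbbe2.

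Relatives of the members in the same protein families did not all move one way. Families were taken by gene symbol after the members' values were known. In the protein 4.1 family, epb41l5 fell (-2.78, above the dim level on 2 of 4 GFP-positive arrays), epb41l3b rose by 2.203 (limma adjusted p = 0.019; not called without pair 2, 3 or 4, and 2.83 without pair 1) and epb41l3a did not pass (-1.11), but was called lower without pair 3 (-1.54). Among the spectrins, both tested probe sets of sptbn1, the beta-spectrin of other tissues, fell (-1.92 and -1.42; the brighter was not called without pair 2 or 4), and that of sptan1 did not pass. The anion exchanger gene slc4a2a (0.70, called higher after quantile or cyclic loess normalization) and the bicarbonate transporter gene slc4a4b (0.85) did not pass, and slc4a4b was dim on all GFP-negative arrays. Of 4 tested probe sets of other carbonic anhydrases 0 passed in either direction, and their differences ran from 0.12 for ca5a to 0.81 for ca8. Among the nucleotidases nt5dc2 fell (-1.60, limma adjusted p = 0.034; not called after median centring or without pair 2 or 4), while nt5c2a (0.41) and nt5c3a (0.15, and -1.25 by another probe set) did not pass. In all, 16 probe sets of relatives were tested, and 4 were lower and 1 higher, beside background shares of 18.4% and 13%.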

How the data were processed

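RNA of sorted GFP-positive and GFP-negative cells was measured on 8 Affymetrix zebrafish arrays. The deposited values are 1 linear intensity per probe set and array, MAS5 signals per the submitters' processing notes (version not given in the sources used here). Detection calls and scanner files were not used here. Of 15617 probe sets, 10802 had 1 gene symbol in the platform annotation, 135 several and 4680 none, and symbols were updated by gene identifier. The 115 control probe sets stayed out of the tests. The deposited intensities were transformed to log2 without further scaling. Tests covered the 9801 probe sets whose signal exceeded the array's 40th percentile on 4 or more of 8 arrays. Differences were fitted with limma 3.58.1 in R 4.3.3 (trend, two-sided, Benjamini-Hochberg). The step was also run on simulated data with a common spread and no pair effect, which checks neither the block nor the trend. The fit had the replicate number as a block, since the submitters' design text speaks of pairing positive with negative samples. Deviations from the fraction means correlated within pairs 1 to 4 with coefficients of 0.40, 0.26, 0.18 and -0.12. In pair 4 the pairing therefore rests on that text and on the sort number that the sample titles share. Genes with more than 1 tested probe set were represented by the brightest. A called gene dim on all arrays of a fraction is given as "at least" a fold, with that fraction set to the 40th percentile where it lay below it. This leaves out the spread between arrays. The uncalled slc4a4b, dim on all GFP-negative arrays, is given with its plain difference. The text names all members, up to 3 genes of each red cell list with the smallest p-values and the 6 genes most like the members. Markers of other cell types are given as counts, and other list genes and the family relatives were named after their values were seen. The members and lists were chosen with earlier results of these data known. Alternatives were quantile, cyclic loess and median scaling, an offset of 50, 2 other filters, no variance trend, no block, and each pair left out. Probe, promoter and protein sequences and genome coordinates were not used here.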

Additional observations from a re-analysis of the deposited data

Results flagged for a closer look

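Of 21 groups of 4 values tested for a stray value (each member's log2 signals in each fraction and its pair differences), 1 had one, and chance gives about 1 in 20. The log2 signal of znfl2a in GFP-negative replicate 4 was 11.72, while the other GFP-negative arrays lay between 12.90 and 13.09. The same array was also the lowest GFP-negative one for epb41b, sptb and blvrb. Without that pair the difference of znfl2a was -1.98 (limma adjusted p = 0.028).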

How the results depend on the processing

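The differences of the 7 members kept their sign in all 12 alternatives. The calls of epb41b, sptb, nt5c2l1, blvrb and znfl2a held in 12 of 12, with the highest adjusted p at 0.048 (nt5c2l1, no replicate block), and slc4a1a was called in 0 of 12 (lowest limma adjusted p = 0.084, without replicate 1). The call of cahz held in 8 of 12. Member probe sets called lower numbered 6, or 5 with no replicate block, after median centring and without replicate 3 or 4, so leaving out a replicate gave 5 to 6. The block changed no other member's call. The members' median ran from -1.98 to -1.61 with a replicate left out. The median over all tested probe sets was -0.18 on the deposited scale and 0.0034 after median centring, which changed no member's direction. Of all tested probe sets 1273 were higher and 1805 lower. Median centring gave 1486 higher and 1442 lower, quantile normalization 1427 and 1550, and no replicate block 1191 and 1688. The filter on all 8 arrays, which tests fewer probe sets (6684), called 1050 lower. Leaving out a replicate gave 646 to 1466 higher and 659 to 2027 lower. Besides the members, 65 genes were followed: the tested genes of the red cell lists, those most like the members and the family relatives. Not all of them are named above, and genes without a call in the main fit are included. Of their 772 values under the alternatives, 656 kept their direction and side of the threshold, 94 lost the call, 18 gained one and 4 changed sign, none of them called: hbbe3 (-0.43 after quantile normalization, -0.064 after cyclic loess and -0.099 to 0.62 with a replicate left out) and fth1a (-0.14 after quantile normalization). Of 29 called genes in the red cell lists besides the members, 6 kept the call in every alternative run. These were mpp1, gsr, pgd and tktb, which were higher, and dmtn and pgam2, which were lower. None was in the regulator, haem or globin lists. The causes were not tested. Called genes that were dim throughout a fraction have only bounds, and no member was dim.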
